A study of Mus musculus with 2 samples.

Results

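The NR4A and EGR antigen-response genes are the transcription factor genes Nr4a1, Nr4a2, Nr4a3, Egr1, Egr2 and Egr3 together with Nab1 and Nab2, which encode the corepressors of EGR proteins. They were found by gene name in the deposited count table of each library, and all 8 genes of the group were present among 34745 gene rows. All 8 also passed the level taken as measured, 1 CPM (counts scaled to a common library total) or more in at least 1 library, as did 13464 rows in all. The RNA came from regulatory T (Treg) cells, the CD4 T cells that express Foxp3 and hold immune responses in check. They were sorted by CD4 and a yellow fluorescent protein (YFP) from spleens of C57BL/6 mice 2 weeks old. The knockout library came from poh1fl/fl Foxp3Cre+ mice and the wild-type library from poh1+/+ Foxp3Cre+ mice, so both carried the Cre allele and its reporter. Cre is driven by Foxp3, which limits recombination to cells that express or have expressed that gene. POH1 is the product of Psmd14, the deubiquitinase of the proteasome lid. There was 1 library per genotype, with 14544212 counts in the knockout and 18124611 in the wild-type library, and the sources used here do not say whether animals were pooled. No difference below therefore has a replicate check, no test was made, and the ranges in parentheses are exact 95% intervals that cover counting error alone.

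NR4A proteins are orphan nuclear receptors that act without a known natural ligand and bind an element called NBRE. EGR proteins are zinc-finger factors that bind GC-rich sites. In T cells both families are switched on within minutes to hours of antigen receptor engagement. NR4A genes respond mainly through calcium, MEF2 and CREB, and Egr1 mainly through the ERK kinases and SRF. In mice, NR4A receptors help to keep Foxp3 expressed in Treg cells, and EGR2 and EGR3 drive genes that restrain activation. NAB proteins bind EGR factors and recruit a repressive complex, NuRD, and Nab2 is itself an EGR target.

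Promoter sequence is shown for the 3 NR4A genes, which share short CREB motifs, for Egr2, for its match to the SRF motif, and for Nab1, for its matches to EGR motifs. A match is a description of the sequence, and no binding was measured. Promoter windows from RefSeq (GRCm38.p6, the assembly that mm10 names) run from 250 bases before to 50 bases after a transcription start. They were held for 6 of the 8 genes, 5 windows for Egr2 and 1 each for the others. Printed here are the 250 bases before the start, 5′ to 3′ on the gene's strand, with motif matches on either strand in capitals. For Egr2 the start furthest downstream was taken. The windows lie at chr15:101266596-101266845 (plus strand) for Nr4a1, chr2:57124004-57124253 (minus strand) for Nr4a2, chr4:48045055-48045304 (plus strand) for Nr4a3, chr10:67537680-67537929 (plus strand) for Egr2 and chr1:52500449-52500698 (minus strand) for Nab1.
Nr4a1: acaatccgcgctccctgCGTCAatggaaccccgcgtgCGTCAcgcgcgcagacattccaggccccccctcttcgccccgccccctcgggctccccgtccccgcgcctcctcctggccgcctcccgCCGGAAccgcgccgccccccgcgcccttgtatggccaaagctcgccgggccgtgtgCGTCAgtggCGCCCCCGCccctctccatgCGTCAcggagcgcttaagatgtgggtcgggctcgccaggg
Nr4a2: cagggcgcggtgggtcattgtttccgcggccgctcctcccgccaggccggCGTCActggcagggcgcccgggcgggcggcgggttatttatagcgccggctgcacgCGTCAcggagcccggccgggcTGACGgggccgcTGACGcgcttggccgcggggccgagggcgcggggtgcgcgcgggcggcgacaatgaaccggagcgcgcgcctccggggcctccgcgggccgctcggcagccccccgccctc
Nr4a3: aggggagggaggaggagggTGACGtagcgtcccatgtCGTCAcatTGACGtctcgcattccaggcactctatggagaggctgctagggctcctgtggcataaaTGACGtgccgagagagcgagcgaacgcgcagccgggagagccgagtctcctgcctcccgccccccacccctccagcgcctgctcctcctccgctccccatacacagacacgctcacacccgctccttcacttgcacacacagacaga
Egr2: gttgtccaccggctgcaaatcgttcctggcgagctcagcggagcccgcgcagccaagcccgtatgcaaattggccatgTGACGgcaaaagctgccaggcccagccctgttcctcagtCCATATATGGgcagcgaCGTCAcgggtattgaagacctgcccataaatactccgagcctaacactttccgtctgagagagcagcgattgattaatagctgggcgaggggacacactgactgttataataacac
Nab1: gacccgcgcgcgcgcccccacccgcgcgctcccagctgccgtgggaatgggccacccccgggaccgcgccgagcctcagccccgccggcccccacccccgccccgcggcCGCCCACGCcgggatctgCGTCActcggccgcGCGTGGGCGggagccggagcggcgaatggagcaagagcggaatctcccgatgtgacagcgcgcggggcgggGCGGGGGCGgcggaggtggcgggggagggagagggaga

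Each of the 3 NR4A windows held 4 matches to TGACG, the short form of the cyclic AMP response element (CRE) that CREB binds. On the other strand it reads CGTCA. Of 32851 promoter windows of the same length in the table, 20.8% held at least 1 match to TGACG, 5.01% held 2 or more and 0.231% held 4 or more. In the Nr4a2 window the matches lay between 200 and 107 bases before the start, and in the Nr4a3 window between 231 and 143. None of these windows held the full element, TGACGTCA, which 1.79% of all windows held. The Egr2 window held a CArG box, the SRF element, from 133 to 124 bases before its start, between 2 TGACG matches. CArG boxes were found in 1.63% of all windows. The Nab1 window held 2 matches to the EGR binding site GCGTGGGCG. At least 1 such match was found in 0.612% of all windows, and 2 or more in 0.0213%. It also held 1 match to the EGR site GCGGGGGCG, which 2.91% of all windows held, and 1 to TGACG. A match to GCGGGGGCG was also present in the Nr4a1 window, together with 1 match to CCGGAA, the ETS core that 14.9% of all windows held. The NBRE, AAAGGTCA (1.51% of windows), and the AP-1 site, TGANTCA (7.81%), were searched for as well and had no match in any of these windows. The Nab2 window held no match to any motif searched, and that of Egr4, the fourth EGR gene, held 2 TGACG matches.

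**Figure D1:**
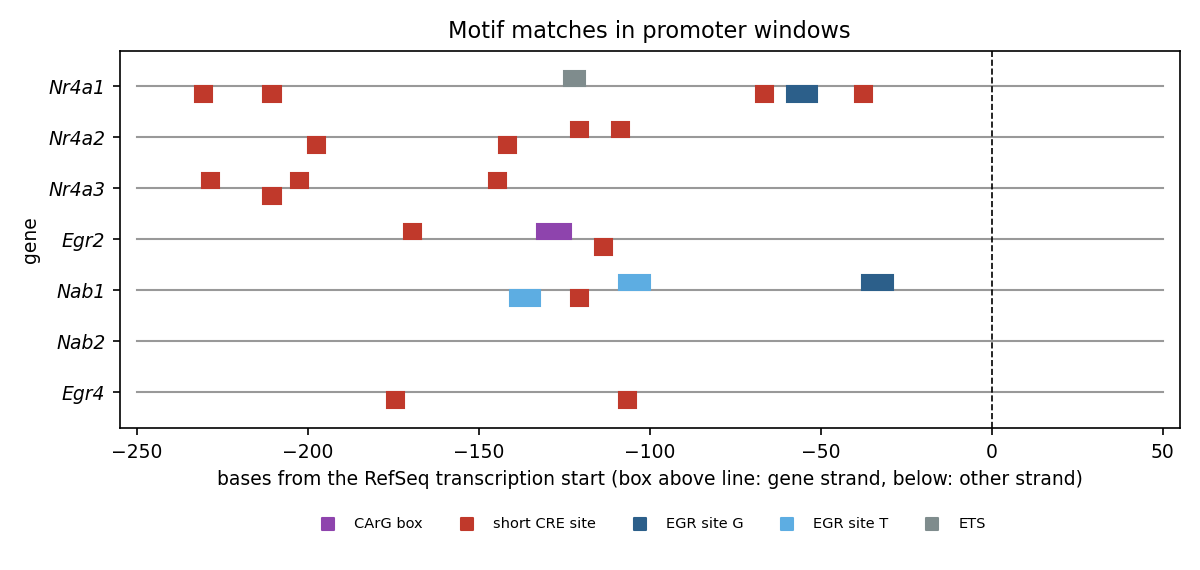
Motif matches in RefSeq promoter windows, 1 line per gene, by distance in bases from the transcription start (dashed). Boxes are short CRE sites (TGACG), the CArG box, the EGR sites GCGGGGGCG (site G) and GCGTGGGCG (site T) and the ETS core CCGGAA, and Nr4a1, Nr4a2 and Nr4a3 each hold 4 short CRE sites.

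All 8 genes had fewer scaled counts in the knockout than in the wild-type library, by amounts from 1.12-fold to 10.4-fold. Nr4a2, Egr3 and Nr4a3 were lower by a rule of size, under which the whole counting interval must lie beyond 2-fold. These 3 of 8 stand beside 6.63% of all 13464 measured genes that were lower by the same rule, and 11.0% that passed it in either direction. The 8 genes were chosen with earlier results of these data known, so their share is a description only. With the line drawn at 1.5-fold, Nr4a1 passed too, 4 of 8, beside 12.3% of all genes lower and 21.9% in either direction. The other members, Egr1, Egr2, Nab1 and Nab2, passed neither rule. The median log2 ratio (knockout over wild type) was -0.81 over the 8 genes and -0.01 over all measured genes, of which 50.4% had a ratio below 0. In bulk RNA, fewer cells that express a gene and less of its RNA per cell cannot be told apart.

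**Figure D2:**
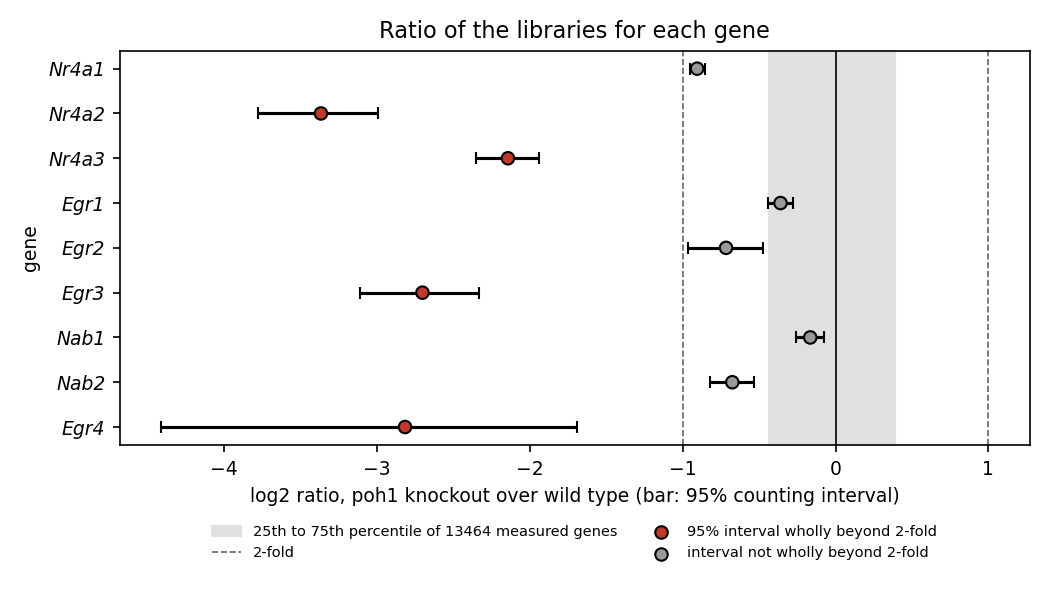
The log2 ratio of knockout to wild type (horizontal axis) for each gene, with its 95% counting interval as a bar and Egr4 added as a relative. Nr4a2 (-3.37), Egr3 (-2.70), Nr4a3 (-2.14) and Egr4 (-2.82) lie left of the dashed 2-fold line with their whole intervals, while the grey band runs from the 25th to the 75th percentile of all measured genes.

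Psmd14, the gene targeted, had 463 counts (31.8 CPM) in the knockout and 1619 (89.4 CPM) in the wild-type library, in the direction of the label. Il2ra, the interleukin-2 receptor chain CD25 of Treg cells, was at 1530.0 CPM in the knockout and 989.8 CPM in the wild-type library. Markers of other cells differed between the libraries. By the 2-fold rule 6.63% of all measured genes were lower and 11.0% passed in either direction. The 8 B cell markers summed to 38.9 CPM in the knockout and 143 CPM in the wild-type library, with 5 lower by the 2-fold rule and none at 0 counts. The 7 erythroid markers summed to 17.3 CPM in the knockout and 66.9 CPM in the wild-type library, with 6 lower. The 7 neutrophil markers, 5 of them measured, summed to 5.50 CPM in the knockout and 17.1 CPM in the wild-type library. Camp and Mpo were the 2 lower by the rule. S100a8, not among the measured genes, and Camp were at 0 counts in the knockout library, and Elane was at 0 in both. The 7 dendritic cell markers summed to 62.3 CPM in the knockout and 42.9 CPM in the wild-type library, with 3 lower and 1 higher, and Xcr1 and Clec9a were at 0 counts in the knockout library. The higher one was Ccr9, a chemokine receptor that T cells also express, at 41.2 CPM in the knockout and 14.7 CPM in the wild-type library, and the other 6 summed to 21.1 CPM in the knockout and 28.1 CPM in the wild-type library. Monocyte and macrophage markers summed to 201 CPM in the knockout and 158 CPM in the wild-type library (8 genes, 0 past the rule). The 6 CD8 T and NK cell markers, 4 of them measured, summed to 56.7 CPM in the knockout and 21.8 CPM in the wild-type library. Cd8a and Eomes were higher by the rule, and Cd8b1 was at 21.3 CPM in the knockout and 11.4 CPM in the wild-type library. The NK cell genes Klrb1c, Klrd1 and Ncr1 went the other way. Klrb1c was at 0.825 CPM in the knockout and 1.05 CPM in the wild-type library. Klrd1 and Ncr1, not among the measured genes, had 2 and 0 counts in the knockout library and 6 and 2 in the wild-type library. The 6 stromal and endothelial markers, 5 of them measured, summed to 190.3 CPM in the knockout and 177 CPM in the wild-type library. Of these, 2 were lower, and Pdgfrb, not among the measured genes, had 0 counts in the knockout and 9 in the wild-type library. Pecam1 alone was at 189 CPM in the knockout and 169.8 CPM in the wild-type library, and the other 5 summed to 1.24 CPM in the knockout and 7.12 CPM in the wild-type library. The 7 Treg and T cell markers summed to 5007 CPM in the knockout and 4763 CPM in the wild-type library, with 0 past the rule. Of the 7, 4 had a log2 ratio below 0. With the line at 1.5-fold, 2 were higher, Il2ra and Foxp3, and 2 were lower, Ctla4 and Ikzf2. Ctla4 was at 703 CPM in the knockout and 1120 CPM in the wild-type library, and Ikzf2 at 526 and 825 CPM. B cells and myeloid cells also express NR4A and EGR genes, and the part of these cells in the values below was not tested.

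Nr4a1, which encodes NUR77, was by far the most abundant of the group. It had 4727 counts, 325 CPM, in the knockout library and 11030 counts, 609 CPM, in the wild-type library. The knockout level was thus 1.87-fold lower (1.81 to 1.94), short of 2-fold over its whole interval. On the deposited FPKM scale (fragments relative to gene length and to the library total) Nr4a1 was at 131 in the knockout and 246 in the wild-type library, rank 205 and rank 101 among measured genes. The gene spans 101254269 to 101274795 of chromosome 15 (plus strand, mm10, a protein-coding gene).

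Nr4a2, which encodes NURR1, had the lowest ratio of the 8 genes. It had 60 counts, 4.12 CPM, in the knockout library and 776 counts, 42.8 CPM, in the wild-type library, 10.4-fold lower (7.98 to 13.7). Only 1.46% of all measured genes had a lower ratio. Nr4a2 spans 57106830 to 57124003 of chromosome 2 (minus strand). Nr4a3, which encodes NOR1, had 231 counts, 15.9 CPM, in the knockout library and 1273 counts, 70.3 CPM, in the wild-type library, 4.42-fold lower (3.84 to 5.11). It spans 48045153 to 48086447 of chromosome 4 (plus strand). Both minor NR4A genes were therefore well below the wild-type level, where Nr4a1 kept 53.4% of its FPKM.

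The difference between the NR4A genes was itself larger than counting error. Relative to Nr4a1, Nr4a2 was a further 5.54-fold lower in the knockout library (4.25 to 7.35) and Nr4a3 a further 2.36-fold (2.04 to 2.74). These are plain ratios of the count ratios with intervals of exact conditional odds ratios, and neither depends on how the libraries are scaled. Nr4a2 was also 2.35-fold further down than Nr4a3 (1.73 to 3.22). Nr4a1 made up 98.4% of the summed FPKM of the 3 NR4A genes in the knockout and 94.9% in the wild-type library. The sum was 133 FPKM in the knockout and 259 FPKM in the wild-type library, 1.94-fold lower and close to the ratio of Nr4a1 alone. Nr4a2 contributed 0.486% of the sum in the knockout and 2.60% in the wild-type library, and Nr4a3 1.08% and 2.46%. Per kilobase of merged exons in the GENCODE annotation, Nr4a1 made up 96.2% of the sum in the knockout and 88.6% in the wild-type library, Nr4a2 1.06% and 5.39%, and Nr4a3 2.76% and 5.99%. On that length the sum was 2.03-fold lower in the knockout library. Each NR4A promoter window holds 4 short CRE sites, and a link between these sites and the ratios was not tested.

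**Figure D3:**
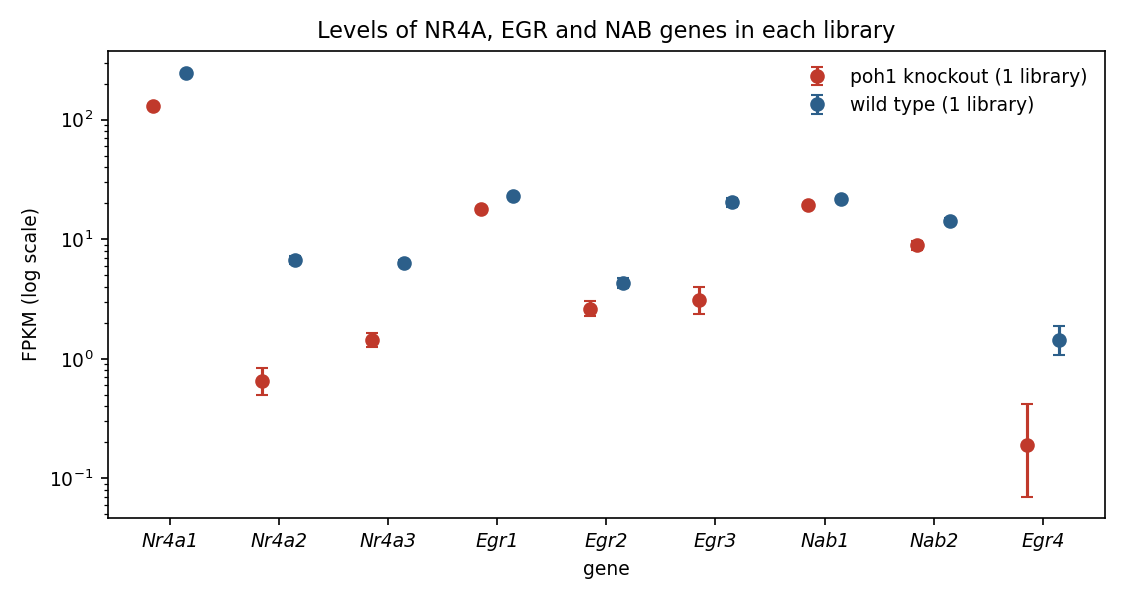
FPKM of each gene (log axis) in the knockout (left point of a pair) and the wild-type library (right point), with 95% counting intervals as bars where they exceed the point. Nr4a1 is highest in both libraries at 131 and 246 FPKM, and Nr4a2 lies below all but Egr4 in the knockout library, at 0.648 FPKM.

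Among the 3 EGR members, Egr3 differed most and Egr1, the most abundant, least. Egr3, an EGR factor linked to T cell tolerance, had 64 counts, 4.40 CPM, in the knockout library and 522 counts, 28.8 CPM, in the wild-type library, 6.55-fold lower (5.04 to 8.63). It spans 70077203 to 70082614 of chromosome 14 (plus strand). Egr2, the other tolerance-linked EGR factor and the one whose promoter holds the CArG box shown above, had 208 counts, 14.3 CPM, in the knockout and 426 counts, 23.5 CPM, in the wild-type library. Its 1.64-fold lower level (1.39 to 1.95) passed neither the 2-fold nor the 1.5-fold rule. It spans 67535475 to 67542188 of chromosome 10 (plus strand).

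Egr1, the prototype of the family, had 1943 counts, 134 CPM, in the knockout library and 3106 counts, 171 CPM, in the wild-type library. The level was 1.28-fold lower in the knockout (1.21 to 1.36), and 28.3% of all measured genes had a lower ratio. Egr1 spans 34859823 to 34864984 of chromosome 18 (plus strand). Egr4, a relative outside the group, was scarce, with 6 counts in the knockout and 56 in the wild-type library, 7.49-fold lower (3.24 to 21.3). The EGR genes thus also parted beyond counting error. Relative to Egr1, Egr3 was a further 5.10-fold lower (3.90 to 6.76), and relative to Egr2 it was 3.98-fold lower (2.90 to 5.51). Egr2 was 1.28-fold lower relative to Egr1 (1.07 to 1.53), an interval that comes close to no difference.

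The share of Egr3 among the EGR genes depends on the gene length used. The 3 genes summed to 23.5 FPKM in the knockout and 47.5 FPKM in the wild-type library, 2.02-fold lower, and Egr3 made up 13.2% of that in the knockout and 42.9% in the wild-type library. The length implied by the deposited FPKM of Egr3 was 1416 bases, 32.1% of the merged exons in the GENCODE annotation, whereas for Egr1 and Egr2 it was 168% and 160%. Per kilobase of merged exons, the sum was 35.0 CPM per kilobase in the knockout and 51.7 CPM per kilobase in the wild-type library, 1.48-fold lower, and Egr3 made up 2.85% in the knockout and 12.7% in the wild-type library. Its share was lower in the knockout library on both lengths, and the ratio of a single gene between libraries does not depend on the length, whereas that of the sum does.

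The NAB genes were closer to their wild-type level. Nab1 had 1633 counts, 112 CPM, in the knockout and 2281 counts, 126 CPM, in the wild-type library, 1.12-fold lower (1.05 to 1.20). It was the member nearest to an equal level. Nab1 spans 52457294 to 52500679 of chromosome 1 (minus strand). Nab2, the EGR-induced corepressor, had 579 counts, 39.8 CPM, in the knockout and 1152 counts, 63.6 CPM, in the wild-type library, 1.60-fold lower (1.44 to 1.77). Relative to Nab1 it was a further 1.42-fold lower (1.26 to 1.61). The ratio of Nab2 was close to that of Egr2, with a ratio of the 2 ratios, Egr2 over Nab2, of 0.971 (0.796 to 1.18).

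Nab2 is the only member whose exons overlap those of other genes. It spans 127660918 to 127668568 of chromosome 10 (minus strand), and 42.2% of its merged exon length is shared with genes on the plus strand, 35.7% with the antisense gene Gm16229, 5.13% with Nemp1 and 1.36% with Stat6. The kit does not mark strand, so reads in the shared stretches cannot be assigned to one strand. Gm16229 itself was listed with 5 counts in the knockout and 13 in the wild-type library. Stat6, the signal transducer of interleukin-4, had 5226 and 5614 counts in the knockout and the wild-type library. None of the other 7 members shared exon sequence with another annotated gene.

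Ordered by FPKM, the knockout library held Nr4a1 first, then Nab1 (19.2), Egr1 (17.8), Nab2 (8.87), Egr3 (3.11), Egr2 (2.64), Nr4a3 (1.44) and Nr4a2 (0.648). The intervals of Nab1 and Egr1 overlapped, as did those of Egr3 and Egr2. The wild-type library held Nr4a1 first, then Egr1 (22.8 FPKM), Nab1 (21.5), Egr3 (20.3), Nab2 (14.2), Nr4a2 (6.73), Nr4a3 (6.37) and Egr2 (4.33). Here the intervals of the neighbours Egr1 and Nab1, Nab1 and Egr3, and Nr4a2 and Nr4a3 overlapped. Overlap of separate intervals does not show that levels are equal, and differences between genes within a library were not tested. The order depends on the gene length. In CPM per kilobase of merged exons, the knockout library held Nr4a1 (92.6), Egr1 (29.8), Nab1 (27.4), Nab2 (13.5), Egr2 (4.21), Nr4a3 (2.65), Nr4a2 (1.02) and Egr3 (0.999). The wild-type library held Nr4a1 (173), Egr1 (38.2), Nab1 (30.7), Nab2 (21.6), Nr4a3 (11.7), Nr4a2 (10.5), Egr2 (6.92) and Egr3 (6.54). Thus 6 of the 8 changed place in the knockout and 4 in the wild-type library, Egr3 being the lowest in both and Nr4a1 the highest on either length.

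**Figure D4:**
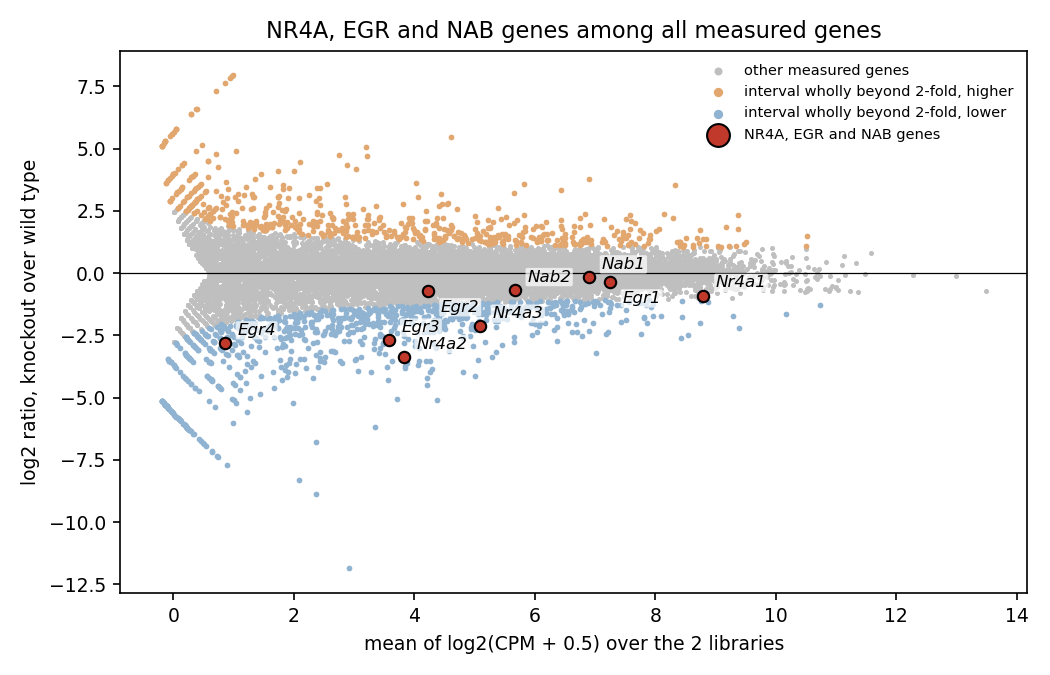
Each measured gene by the mean of log2(CPM + 0.5) over the 2 libraries (horizontal axis) and its log2 ratio of knockout to wild type (vertical axis), with genes wholly beyond 2-fold coloured. Nr4a1, Egr1 and Nab1 lie at high levels with ratios between -0.91 and -0.17, and Nr4a2, Nr4a3 and Egr3 lie lower on both axes.

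With 2 libraries, likeness of pattern can mean only an equal pair of levels. By distance in log2(CPM + 0.5) over both libraries, among 11595 genes searched, the gene nearest to Nr4a2 was Gna15, at 4.19 CPM in the knockout and 44.5 CPM in the wild-type library, a distance of 0.06. The nearest to Egr3 was Cdc42ep3, at 4.33 and 28.04 CPM in the knockout and the wild-type library, and the nearest to Nr4a3 was Slc4a8, at 15.7 and 69.4 CPM. Cdc42 was nearest to Nr4a1, at 349 CPM in the knockout and 611 CPM in the wild-type library, though at the largest distance of the 8 (0.10). The nearest genes to Egr1, Egr2, Nab1 and Nab2 were Zbtb1, Rpe, Eml3 and Rhob, within 0.03.

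Genes of the routes that switch on NR4A and EGR genes lay near the middle of all genes. In the antigen receptor to ERK and SRF list, 0 of 18 genes passed the 2-fold rule either way, beside 11.0% of all measured genes. Its median log2 ratio was 0.00, and the sign was not steady, being below 0 under 2 other scalings. Rasgrp1, the exchange factor that couples the receptor to Ras and the most abundant of the list, was at 704 CPM in the knockout and 522 CPM in the wild-type library. Srf, chosen for its role at the CArG box, was at 120 CPM in the knockout and 177 CPM in the wild-type library, 1.47-fold lower (1.39 to 1.56) and short of 2-fold.

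Against 6.63% of all measured genes lower, 1 of 22 calcium, NFAT and MEF2 genes was lower and 0 were higher (median log2 ratio -0.14). That gene was Nfatc1, the NFAT factor that is itself induced by activation, at 163 CPM in the knockout and 384 CPM in the wild-type library, 2.36-fold lower (2.25 to 2.47). Creb1, chosen for its role at the short CRE site, was at 155 CPM in the knockout and 179 CPM in the wild-type library, 1.15-fold lower (1.09 to 1.22).

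Genes that are induced together with NR4A and EGR genes leaned lower, in lists chosen with earlier results of these data known. Among 30 other immediate early genes, 10 were lower and 1 was higher, beside 6.63% of all measured genes lower and 11.0% in either direction. The median log2 ratio of the list was -0.62. Fosb, an AP-1 subunit gene, was at 92.8 CPM in the knockout and 506 CPM in the wild-type library, 5.45-fold lower. Klf4, a Krüppel-like factor of quiescent T cells, was at 16.2 CPM in the knockout and 71.9 CPM in the wild-type library, and Klf6 at 188 and 637 CPM. Jun, the AP-1 partner of Fos proteins, was the member higher by the rule, at 946 CPM in the knockout and 445 CPM in the wild-type library. Junb, the most abundant, was at 1216 CPM in the knockout and 1919 CPM in the wild-type library. The list thus held genes past the rule in both directions, and the log2 ratio of Nr4a2 (-3.37) lay below that of every gene in it, Fosb at -2.45 being the lowest.

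Among 18 surface and signalling genes that antigen receptor signals induce, 3 were lower and 0 higher (median log2 ratio -0.61). The share lower among all measured genes was 6.63%. Icos, a costimulatory receptor, was at 138 CPM in the knockout and 851 CPM in the wild-type library, 6.18-fold lower (5.90 to 6.48). Pdcd1, which encodes the inhibitory receptor PD-1, was at 8.04 CPM in the knockout and 42.9 CPM in the wild-type library, and Cd83 at 29.0 and 82.3 CPM. Cd69, the early activation antigen, was chosen after its value was seen, since it stood near its wild-type level at 388 CPM in the knockout and 410 CPM in the wild-type library.

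Of the genes known to depend on EGR2 and EGR3 in tolerant T cells or on EGR factors elsewhere, 3 of 18 measured were lower and 2 higher (median log2 ratio -0.19). The lower ones were Nrp1, the neuropilin of thymus-derived Treg cells, at 31.6 CPM in the knockout and 211 CPM in the wild-type library, Nrn1, which encodes neuritin, at 4.33 and 23.5 CPM, and Rnf128, the E3 ligase gene GRAIL, with 7 and 66 counts. Socs1 and Socs3, feedback inhibitors of cytokine receptors, were the higher ones. Socs1 was at 124 CPM in the knockout and 33.2 CPM in the wild-type library, and Socs3 at 494 and 144 CPM. Dgka, a diacylglycerol kinase of anergic T cells and the most abundant of the list, was at 1338 CPM in the knockout and 997 CPM in the wild-type library. The list thus held genes past the rule in both directions, and a link to the level of Egr3 was not tested. Over all measured genes 6.63% were lower and 11.0% passed in either direction.

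Of 10 genes linked to NR4A receptors (median log2 ratio -0.68), 3 were lower and 0 higher, where 6.63% of all measured genes were lower. Besides Pdcd1, the lower ones were Tox2 and Havcr2. Tox2, a factor of chronically stimulated T cells, was at 3.85 CPM in the knockout and 17.8 CPM in the wild-type library. Havcr2, which encodes the inhibitory receptor TIM-3, was at 6.39 and 23.6 CPM. Foxp3, which NR4A receptors activate in mice, was at 1073 CPM in the knockout and 671 CPM in the wild-type library, 1.60-fold higher (1.56 to 1.64). This was short of 2-fold, and a link between the Foxp3 level and the NR4A levels was not tested. Exons of Foxp3 overlap other genes over 31.5% of their length.

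Of 13 listed subunits of the NuRD complex, through which NAB proteins repress, 0 passed the 2-fold rule, beside 11.0% of all measured genes. The median log2 ratio of the subunits was -0.17, with a range from -0.52 to 0.40. Chd4, the remodeller that NAB proteins contact, was at 741 CPM in the knockout and 832 CPM in the wild-type library. Chd3, its relative and the most abundant, was at 1196 CPM in the knockout and 1202 CPM in the wild-type library.

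**Figure D5:**
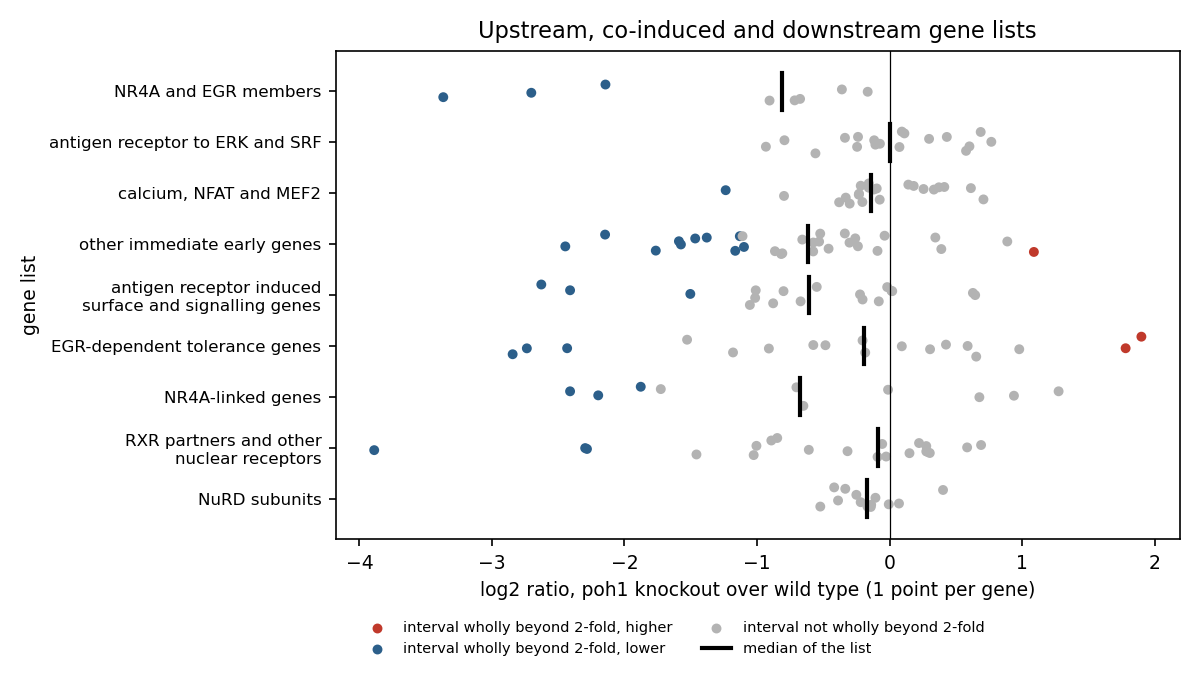
The log2 ratio of knockout to wild type (horizontal axis) of each measured gene in the 8 genes of the group and in the lists of upstream, co-induced and downstream genes, with the median of a list as a black bar. Medians run from -0.81 for the NR4A and EGR group to 0.00 for the route to ERK and SRF. Next after the group come NR4A-linked genes at -0.68, then other immediate early genes at -0.62.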

How the data were processed

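Per the labels, the TruSeq RNA v2 kit was used for the libraries, a kit without strand information. TopHat and HTSeq with the mm10 genome are named in the submitters' processing notes, with versions, annotation and read handling not given in the sources used here. The deposited tables give, per the file headers, a whole-number count and an FPKM value per gene name, and the authors' FPKM was used only for levels between genes. Counts were scaled with TMM factors (edgeR 4.0.16, R 4.3.3), a shift of 0.000781 (log2) in the ratio of knockout to wild type from plain totals. No model was fitted. Ratios carry exact 95% conditional-binomial (Clopper-Pearson) intervals, and 0.5 counts, split by library size, were added before taking log2. A gene was called where its interval lay wholly beyond 2-fold, given 1 CPM in either library. FPKM levels carry exact Poisson intervals. With no molecular identifiers, reads are not independent molecules and intervals cover counting error only. A row on a shared symbol (126 rows) was represented by the row with most counts, and no listed gene was among them.

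The members, 8 pathway lists and 8 marker lists were chosen with earlier results of these data known. The rule for named genes took all members, Egr4 and Psmd14, then up to 3 genes past the call rule at each end of a pathway list and its most abundant gene. The gene nearest in level to each member was named too. Srf, Creb1, Cd69, Chd4, Stat6 and the RXR genes were added for their role, position or value, and some listed genes are not reported here. Coordinates and exon overlap come from GENCODE M21 (mm10) with bedtools 2.31.1, and promoters from RefSeq. Intervals were computed with scipy 1.17.1 in Python 3.11.15 and tested on simulated data.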

Additional observations from a re-analysis of the deposited data

How the results depend on the processing

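No paired analysis was possible because each genotype has 1 library, and for the same reason no replicate could be left out. Depth limits Nr4a2, Egr3 and Egr4, whose knockout counts were 60, 64 and 6. All 8 members kept a ratio below 1 and stayed within their counting intervals under the 6 alternatives run for each, which were plain totals, 2 other scaling factors, totals without mitochondrially encoded genes, a prior of 2 counts and deposited FPKM. The ratio of deposited FPKM is that of plain totals without the added counts, and plain totals lie 0.000781 (log2) from the TMM scaling. Neither is therefore an independent check. Over the 6 alternatives Nr4a2 ranged from -3.39 to -3.33 and Nr4a1 from -0.92 to -0.87. The scalings moved the median of all genes by -0.02 to 0.04. With the interval at 1.5-fold, 1290 genes were higher and 1659 lower, and with the point ratio alone beyond 2-fold 1206 and 1567, against 585 and 892. The median of the ERK and SRF list turned to -0.0061 with median-of-ratios factors and to -0.018 without mitochondrially encoded genes. The median of the Treg and T cell markers was -0.0058 with upper-quartile factors, against -0.05, and that of the CD8 T and NK cell markers 0.28 without a filter on low counts, against 1.36. Levels, sums and order by merged exon length, which moved 6 of 8 members in the knockout and 4 in the wild-type order, and marker sums without Pecam1 or Ccr9 were alternatives added after the data were seen.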

Other observations

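Of 21 measured in a list of 24 RXR partners and other nuclear receptors, 3 were lower and 0 higher by the 2-fold rule. Over all measured genes 6.63% were lower. The median log2 ratio of the list was -0.09. Among its lower genes, Rora, a nuclear receptor of tissue lymphocytes, was at 35.9 CPM in the knockout and 175 CPM in the wild-type library. This was 4.87-fold lower (4.44 to 5.35). Nr1d1, the circadian repressor REV-ERB alpha, had 24 counts in the knockout and 149 in the wild-type library, 4.98-fold lower (3.22 to 8.02). Rara, a retinoic acid receptor and the most abundant of the list by FPKM, was at 27.4 FPKM in the knockout and 23.5 FPKM in the wild-type library. Rxra, the partner with which NR4A1 and NR4A2 can pair, was named for that role and was at 49.1 CPM in the knockout and 91.1 CPM in the wild-type library, 1.86-fold lower and short of 2-fold. Rxrb was at 89.7 CPM in the knockout and 80.9 CPM in the wild-type library, and Rxrg had 0 counts in both.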
